A study of Rattus norvegicus with 10 samples.

Results

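The actin, tropomyosin and contractile genes of rat Sertoli cells were followed over 24 h of follicle-stimulating hormone (FSH). They were chosen by symbol: every probe set with a single gene symbol that starts with Tpm, Myl, Myh, Arpc, Actn or Cnn and a digit, and every probe set of 22 genes listed by name. This gave 44 of the 4736 genes that the array reads with a single symbol, in 76 of its 8740 probe sets. A probe set is the group of short oligonucleotides on an Affymetrix array that together report 1 transcript. Of the 76 probe sets, 49 (35 genes) had a mean intensity over the 10 arrays at or above the array-wide median of 31.97 and were tested, as were 4439 probe sets in all. The other 27 had scaled intensities of 0.626 to 68 and were not tested, and 9 genes had no tested probe set: Actn2, Cnn1, Myh2, Myh4, Myh8, Myh11, Myh13, Myl3 and Myl4.

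The cells were cultured Sertoli cells, the somatic nurse cells of the seminiferous tubule, taken from rats 20 days old. The control was untreated cultures at time 0, and the other 4 groups had received FSH in vitro for 2, 4, 8 or 24 h. Each group had 2 arrays of total RNA, replicate 1 and replicate 2. The 2 h array whose label has no number was taken as replicate 1, because the other 2 h array is labelled replicate 2. Control replicate 1 is titled as control with no time and was taken as 0 h, while the title of control replicate 2 gives time 0. The labels give no strain, FSH dose, culture medium or purity, and they leave unsaid whether replicates were separate cultures. The p-values below therefore reflect array-to-array spread alone, and that spread may be technical. No sample was labelled as an untreated culture later than 0 h, so FSH and time in culture cannot be told apart. Of 14 listed Sertoli cell genes 10 were on the array, and each of the 10 had a tested probe set. Clu, the secreted clusterin, read 6791 to 13810. The FSH receptor Fshr read 56.7 to 195 on L02842_g_at and 1.48 to 14.5 on L02842_at, which was too dim to test.

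Actin exists as monomers and as filaments. Profilin and thymosin beta-4 bind the monomers, the Arp2/3 complex branches filaments, tropomyosins lie along them, and myosin II pulls on them. Serum response factor, which binds the CArG box, is a known activator of many actin genes. FSH raises cAMP in Sertoli cells, whose shape and whose actin bundles at junctions with germ cells are known to respond to cAMP, and CREB, the cAMP-activated factor, binds the cAMP response element (CRE).

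Promoter sequences are shown for the 3 genes on which the description turns. Tpm4 was the member called in a fit over time, and Cnn3 had its 4 and 8 h arrays below all others. Actg1 is, among the actins with a promoter in the RefSeq table, the one whose window held an exact CArG match. All are from RefSeq on assembly GRCr8, run 5′ to 3′ on the gene's strand from 250 bases before to 50 bases after the annotated start, and capitals mark a CArG box or the short CRE form TGACG on either strand.
Tpm4 (chr16:17732434-17732733, minus strand): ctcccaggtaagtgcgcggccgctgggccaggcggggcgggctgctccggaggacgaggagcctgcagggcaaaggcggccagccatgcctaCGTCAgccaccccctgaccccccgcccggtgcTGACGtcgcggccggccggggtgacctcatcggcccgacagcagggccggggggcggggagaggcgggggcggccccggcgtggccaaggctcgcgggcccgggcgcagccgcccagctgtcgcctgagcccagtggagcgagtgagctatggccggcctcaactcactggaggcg
Cnn3 (chr2:212203411-212203710, plus strand): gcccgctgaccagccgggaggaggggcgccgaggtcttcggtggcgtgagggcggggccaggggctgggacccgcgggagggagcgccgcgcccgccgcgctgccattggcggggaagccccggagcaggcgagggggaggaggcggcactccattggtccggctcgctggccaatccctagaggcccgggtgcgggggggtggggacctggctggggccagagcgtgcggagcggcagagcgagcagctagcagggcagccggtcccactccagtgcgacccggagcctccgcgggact
Actg1 (chr10:106120902-106121201, minus strand): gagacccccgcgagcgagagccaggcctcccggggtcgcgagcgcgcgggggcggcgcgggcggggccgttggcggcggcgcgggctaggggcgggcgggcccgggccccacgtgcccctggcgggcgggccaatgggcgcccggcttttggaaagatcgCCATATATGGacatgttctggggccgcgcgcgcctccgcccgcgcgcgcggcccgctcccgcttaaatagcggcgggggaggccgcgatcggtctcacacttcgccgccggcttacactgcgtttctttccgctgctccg

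Among the 36 of 44 member genes with a promoter in the RefSeq table, the CArG box was found in 3 (8.33%), against 1.64% of 27457 promoters of the same length. These were Actg1, with CCATATATGG from -90 to -81, and the striated muscle genes Myh4 and Myl3. Only exact matches to CCWWWWWWGG, with W for A or T, were counted. The Acta2 window held ccctatatgg and ccttgtttgg, each a base off this pattern and so not counted. Actb, Tagln and Myl9 had no promoter in the table and were not searched. The full CRE, TGACGTCA, was found in 1 member promoter (2.78%, against 1.91% of all), that of Myl6 at -28 to -21. The short form TGACG, also counted within the full CRE, was in 9 (25%, against 22% of all). Tpm4 had it at -158 to -154 and at -126 to -122, on opposite strands. Tpm1, Tmsb4x, Cttn, Myl12a, Myl6, Myl7 and Myh6 were among the other 8, and the Cnn3 window held none of the motifs. These are matches of letters and not measured binding.

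Over time the actin and contractile genes as a group stayed close to the array as a whole. With limma, which pooled the spread over all 10 arrays, 0 of the 49 tested members had an adjusted p under 0.05 at 2 h (0.676% of all tested probe sets were called), at 4 h (0.856%), at 8 h (0.766%) or at 24 h (0%), each against 0 h. The counts were also 0 for 24 h against 8 h (0.225% of all), for the mean of the 4 FSH times against 0 h (0.383%) and for the limma F test over all times (0.991%). At an unadjusted p under 0.05 limma counted 0 members at 2 h (4.57% of all tested), 3 at 4 h (7.75%), 2 at 8 h (9.3%), 2 at 24 h (4.6%), 3 for 24 h against 8 h (6.49%), 2 for the mean of the FSH times (7.77%) and 2 by the F test (7.39%). The same-numbered arrays of different times deviated together, so a further fit took that number as a block. In that fit 1 member was called, the Tpm4 probe set J02780_at, at 4 h (2.95% of all tested), at 8 h (2.68%), for the mean (2.28%) and by the F test (3.22%), and 0 at 2 h (1.22%), at 24 h (0.0901%) and for 24 h against 8 h (1.15%).

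The median log2 change of the members was -0.026 at 2 h, -0.031 at 4 h, -0.036 at 8 h and 0.098 at 24 h. Over all tested probe sets it was -0.018, -0.030, -0.025 and 0.018 at the same times. Both later arrays lay above both control arrays for 3, 3, 5 and 10 members at 2, 4, 8 and 24 h, where 11.8%, 15%, 17.7% and 15.8% of all tested probe sets did. They lay below for 4, 7, 5 and 3 members, where 12.3%, 13%, 17.2% and 13.3% of all did. The 10 members above at 24 h made up 20.4% of the 49, and the 7 below at 4 h made up 14.3%.

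**Figure D1:**
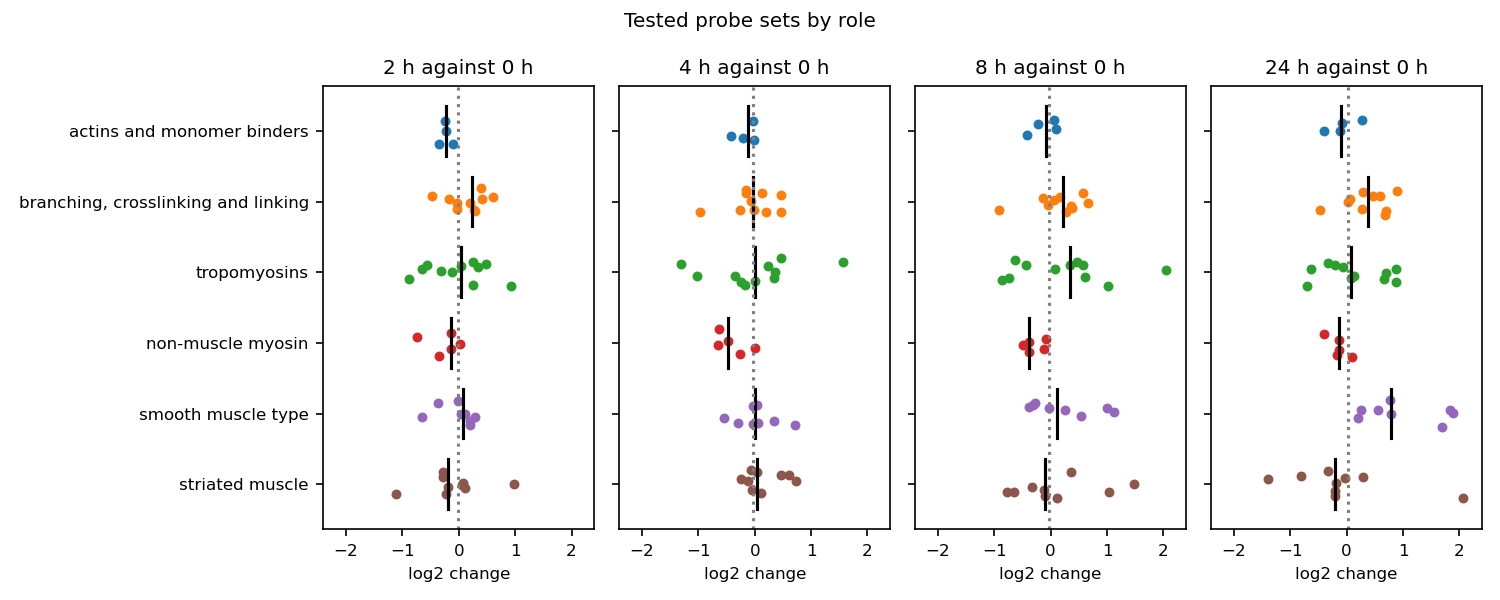
Log2 change against 0 h of the tested member probe sets in 6 role classes (points, spread vertically for legibility) at 2, 4, 8 and 24 h, by the role of the gene, with a black bar at the median of each role and a dotted line at the median of all tested probe sets. Tpm4 is the highest point at 8 h (2.05), and the 2 highest smooth muscle type points at 24 h are M83107_at of Tagln (1.88) and rc_AA900769_s_at of Acta2 (1.84). M83107_at passed the intensity filter only through 24 h replicate 1, with a mean of 19 over the other 9 arrays.

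Tpm4 encodes a tropomyosin of the actin filaments of non-muscle cells. At each time values are given here and below for replicate 1 and then replicate 2, as scaled intensity. The probe set J02780_at read 186 and 201 at 0 h, 472 and 286 at 2 h, 658 and 493 at 4 h, 1188 and 540.4 at 8 h, and 403 and 242 at 24 h. Every FSH array lay above both control arrays, and within each replicate number the level was highest at 8 h. The group means were 193 ± 10.9 (SD, n = 2) at 0 h, 576 ± 116 (SD, n = 2) at 4 h and 864 ± 458 (SD, n = 2) at 8 h, so the spread at 8 h was large.

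The change of Tpm4 was 1.56 ± 0.47 (SE) log2 units at 4 h, a 2.95-fold difference, and 2.05 ± 0.47 at 8 h, 4.15-fold. Without the block these were not called by limma (adjusted p = 0.259 and 0.111), and with the replicate block both were (adjusted p = 0.0305 and 0.00817). The mean of the 4 FSH times was 1.31 ± 0.37 log2 units above 0 h, with an adjusted p of 0.286 in limma without the block and 0.0305 with it. The difference at 2 h was 0.93 ± 0.47 and that at 24 h 0.69 ± 0.47, neither called in either fit. Between 8 and 24 h the value was -1.36 ± 0.47, with both 24 h arrays below both 8 h arrays, and it was not called by limma (adjusted p = 0.573, and 0.0999 with the block). Within replicate 1 the difference from the control of the same number was 2.68 log2 units at 8 h and within replicate 2 it was 1.43. With 1 array left out in turn, the blocked call at 8 h was kept in 9 of 10 fits and lost without 8 h replicate 1 (1.70 log2 units, adjusted p = 0.176 in limma). That at 4 h was kept in 5 of 10. It was lost without control replicate 1 (1.13 log2 units, adjusted p = 0.118 in limma), without 4 h replicate 1 (0.205) or 2 (0.240), and without 24 h replicate 1 (0.0630) or 2 (0.0614). That for the mean was kept in 2 of 10, without control replicate 2 (1.74 log2 units, adjusted p = 0.00673 in limma) and without 8 h replicate 2 (0.0403), and without control replicate 1 the mean was 0.88 (0.176). With no filter on low values all 3 were lost (adjusted p = 0.171 at 4 h, 0.106 at 8 h and 0.170 for the mean in limma). In RNA of a whole culture, more cells with a transcript and more transcript per cell cannot be told apart, here and for every gene below.

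A further Tpm4 probe set, rc_AI105374_at, read 50.2 and 109.5 at 0 h, 96.3 and 80.2 at 2 h, 103 and 88.3 at 4 h, 109 and 117 at 8 h, and 67.6 and 74.4 at 24 h. Its lower 8 h array lay just under its higher control array, so the groups overlapped, and its 8 h difference was 0.61 ± 0.39 log2 units, not called by limma (adjusted p = 0.743). Its 24 h arrays lay below its 8 h arrays, as for the first probe set. The 2 probe sets of Tpm4 thus agreed in the sign of the 8 h difference and not in its size.

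Cnn3 encodes acidic calponin, a calponin of non-muscle cells that binds actin and tropomyosin. It read 323 and 216 at 0 h, 269 and 249 at 2 h, 132 and 137 at 4 h, 137 and 142 at 8 h, and 306 and 247 at 24 h. The 4 arrays of 4 and 8 h lay within 132 to 142, below all 6 others, and the 24 h values were back within the control range. Both arrays lay below both controls for 13% of all tested probe sets at 4 h and for 17.2% at 8 h. The share of all probe sets with the joint pattern of Cnn3 was not counted. The mean was 269 ± 75.7 (SD, n = 2) at 0 h and 135 ± 3.33 (SD, n = 2) at 4 h. The difference was -0.97 ± 0.32 log2 units at 4 h and -0.92 ± 0.32 at 8 h, and that between 8 and 24 h was 0.98 ± 0.32. None of the 3 was called by limma, with adjusted p of 0.346, 0.372 and 0.500, or with the block 0.122, 0.135 and 0.159. A further Cnn3 probe set was at 0.626 to 13.9, too dim to test.

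**Figure D2:**
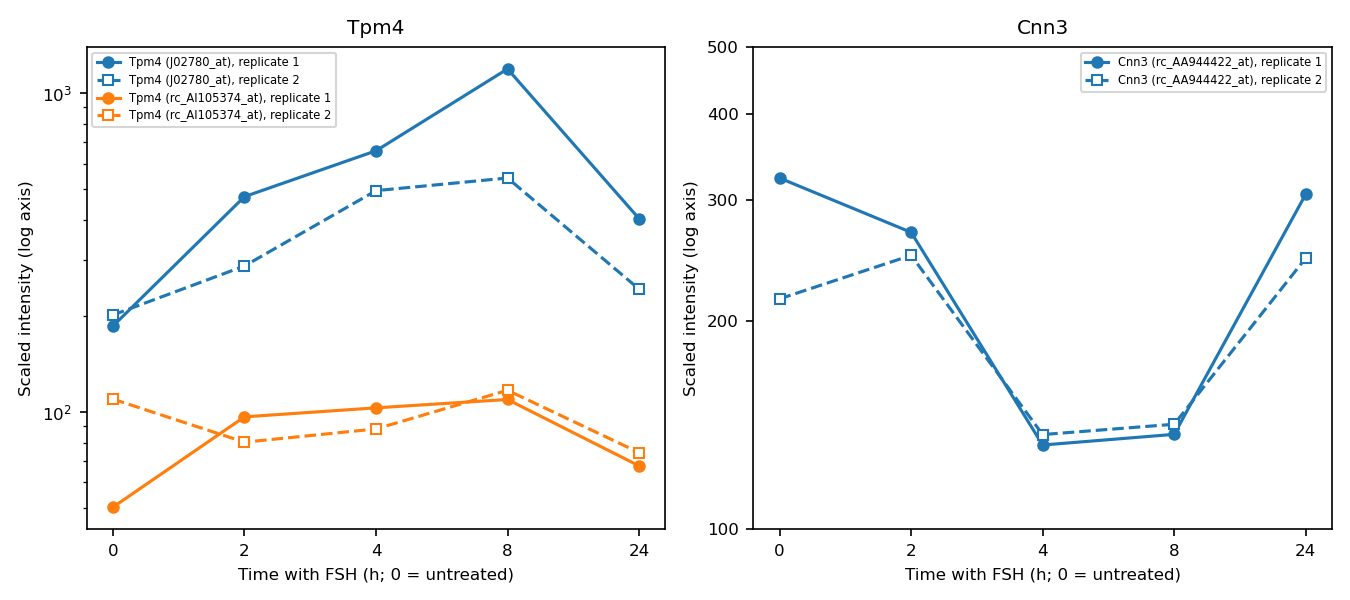
Scaled intensity of the 2 tested Tpm4 probe sets (left) and of Cnn3 (right) against hours of FSH, with a line for each replicate number and logarithmic intensity axes. J02780_at of Tpm4 is highest at 8 h in both replicates, while Cnn3 lies between 132 and 142 on the 4 arrays of 4 and 8 h and at 216 or above on the 6 others.

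The cytoplasmic actins and the proteins that hold actin monomers gave no call at any time in any of the 4 genes. Actb, beta-actin, read 8319 and 5298 at 0 h, 5193 and 6263 at 2 h, 6192 and 5335 at 4 h, 5804 and 5555 at 8 h, and 6583 and 5661 at 24 h. Actg1, the other cytoplasmic actin, read 8481 and 4806 at 0 h, 5638 and 6321 at 2 h, 6364 and 6183 at 4 h, 7643 and 6043 at 8 h, and 7008 and 5187 at 24 h. For both actins the highest array was control replicate 1. All 8 FSH arrays of Actg1 lay between its 2 control arrays, as did those of Actb except 2 h replicate 1. The mean of the FSH times differed from 0 h by -0.19 log2 units for Actb (95% interval -0.74 to 0.35) and by -0.03 for Actg1 (-0.63 to 0.57).

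Tmsb4x, thymosin beta-4, read 15330 and 5182 at 0 h, 7122 and 6829 at 2 h, 7051 and 6293 at 4 h, 7865 and 5658 at 8 h, and 8755 and 5158 at 24 h. Pfn1, profilin, read 1780 and 573 at 0 h, 864 and 835 at 2 h, 916 and 1100 at 4 h, 1264 and 884 at 8 h, and 1600 and 936 at 24 h. The 2 control arrays of these genes were farther apart than any pair of FSH arrays. Measured against control replicate 1, the replicate 1 arrays of all 4 genes were lower at every time, with medians of -0.86, -0.69, -0.51 and -0.31 log2 units at 2, 4, 8 and 24 h. Measured against control replicate 2, the replicate 2 arrays had medians of 0.40, 0.32, 0.23 and 0.10. At 2, 4, 8 and 24 h the medians thus differed in sign between the control arrays. At 24 h Tmsb4x in replicate 2 was level with its control, at 5158 against 5182. For Tmsb4x the log2 difference at 4 h was -0.42, and 0.36 without control replicate 1.

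**Figure D3:**
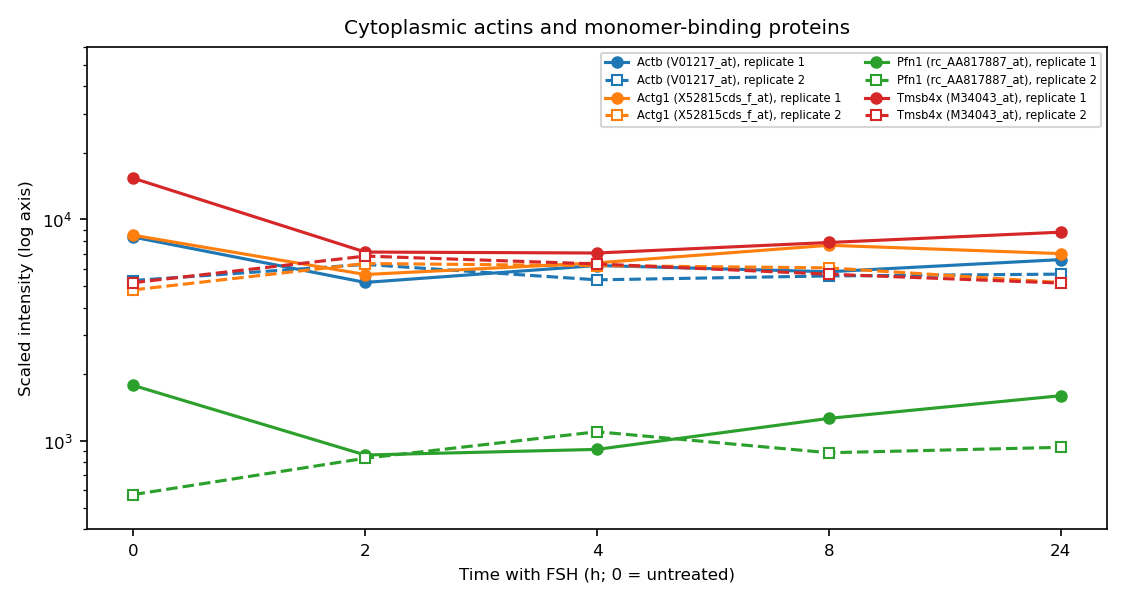
Scaled intensity of Actb, Actg1, Pfn1 and Tmsb4x against hours of FSH on a logarithmic axis, with a line for each replicate number. Control replicate 1 is the highest of the 10 arrays for each gene, and the replicate lines start apart at 0 h and come nearer at 2 h.

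The tropomyosins other than Tpm4 gave no call, and probe sets of the same gene differed in sign. Tpm1, the alpha tropomyosin with many spliced forms, had 4 tested probe sets, whose 8 h differences were 1.02 (M15474cds_s_at), 0.58 (M60666_s_at), -0.44 (M34134_s_at) and -0.64 (X02412_at) log2 units. The suffix _s marks probe sets that can bind several transcripts, and here the labels do not say which spliced forms each reads. The brightest Tpm1 probe set, M34134_s_at, read 527 and 409.9 at 0 h, 404 and 344 at 2 h, 317 and 416 at 4 h, 365 and 324 at 8 h, and 379 and 362 at 24 h. M60666_s_at read 201 and 209 at 0 h, 249 and 240.4 at 2 h, 372 and 183 at 4 h, 476 and 197 at 8 h, and 669 and 209 at 24 h. On that probe set the replicate 1 arrays were higher at each later time, while replicate 2 stayed between 183 and 240.4. Tpm2, the beta tropomyosin, read 60.5 and 88 at 0 h, 61.2 and 168 at 2 h, 60.5 and 123 at 4 h, 85.8 and 99 at 8 h, and 215 and 84 at 24 h, with the groups overlapping throughout.

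Tpm3, the gamma tropomyosin, had 4 tested probe sets, and 3 of them differed between the replicate numbers. The brightest, S82383_s_at, read 1287 and 765 at 0 h, 1042 and 792 at 2 h, 1048 and 739.8 at 4 h, 1287 and 853 at 8 h, and 1457 and 744 at 24 h. It was lower in replicate 2 at every time, by -0.64 log2 units (adjusted p = 0.0297 in limma with the block). L24776_at read 408 and 300.1 at 0 h, 138 and 403 at 2 h, 89.5 and 224 at 4 h, 119.9 and 312 at 8 h, and 128 and 394 at 24 h. The dim probe set rc_AA818554_s_at, whose 4 FSH arrays of replicate 1 lay under the floor of 13.46 to which low intensities were raised before the tests, read 49 and 43.5 at 0 h, 9.51 and 46.2 at 2 h, 9.13 and 37.9 at 4 h, 6.05 and 57.3 at 8 h, and 8.69 and 60.3 at 24 h. On these 2 probe sets the controls were close, and all 4 FSH arrays of replicate 1 were below all arrays of replicate 2. The difference of replicate 2 from replicate 1 was 1.09 log2 units for L24776_at (adjusted p = 0.0341 in limma with the block). For rc_AA818554_s_at it was called as well (adjusted p = 0.0319 in limma with the block), and its fitted size of 1.47 depends on the floor. The 4 h difference of L24776_at from 0 h was -1.30 ± 0.75 log2 units and was not called by limma (adjusted p = 0.879). The 4th probe set, rc_AA859305_s_at, ran from 279 to 586 and was highest on 8 h replicate 1.

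Germ cell transcripts also differed between the replicate numbers. Ldhc, the lactate dehydrogenase of spermatocytes and spermatids, read 570.5 and 1009 at 0 h, 139 and 1652 at 2 h, 109 and 1253 at 4 h, 121 and 1534 at 8 h, and 58.6 and 1319 at 24 h. The summed intensity of the 11 listed germ cell genes on the array lay at 322 to 990.4 on the replicate 1 arrays, below the 2319 to 2816 of the replicate 2 arrays. Of 7 tested germ cell probe sets, 4 were called higher in replicate 2 and 0 lower, where 6.53% and 8.65% of all tested probe sets were. Odf1 and Tnp2 were under the floor on all 10 arrays. The part of germ cell RNA in the Tpm3 values was not tested.

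**Figure D4:**
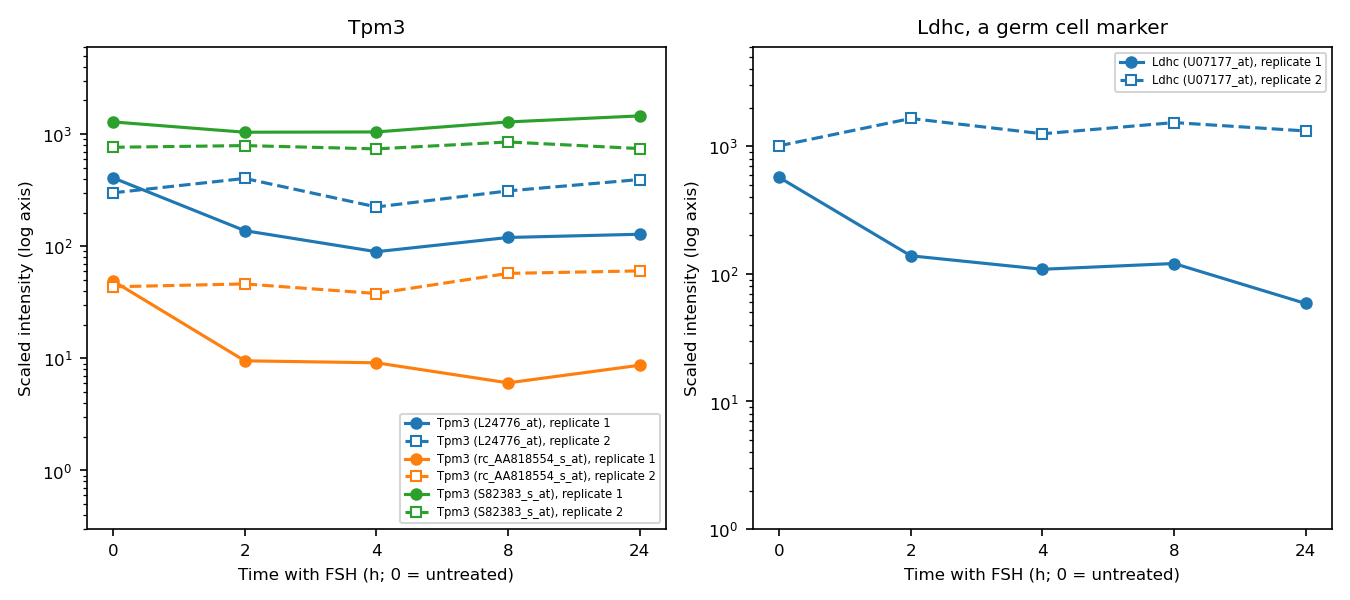
Scaled intensity of the 3 Tpm3 probe sets that differed between replicate numbers (left) and of Ldhc (right) against hours of FSH on logarithmic axes, with solid and dashed lines for replicates 1 and 2. L24776_at, rc_AA818554_s_at and Ldhc are lower on the 4 FSH arrays of replicate 1 than on any array of replicate 2, and S82383_s_at is higher in replicate 1.

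Most probe sets of the smooth muscle type genes were highest on a single array, and part of the other members were as well. Of the 12 probe sets of Acta2, Actg2, Tagln, Myl9, Cnn1 and Myh11, 10 had their highest value on 24 h replicate 1, including the 8 that were tested and 2 of the 4 that were not. On that array 14.9% of all tested probe sets had theirs, and 19 of the 49 tested members (38.8%), the 8 included. Those 19 also held 5 of the 11 tropomyosin probe sets and 5 of the 10 of genes that branch, crosslink and anchor filaments. M83107_at of Tagln and M22323_at of Actg2 passed the filter only through that array, with means of 19 and 31.4 over the other 9. With the filter put on the other 9 arrays, a choice made after the data were seen, 6 of the 12 passed and the 6 were highest there, where 14.6% of all probe sets that passed were. Of the 46 members that passed this filter, 17 (37%) were highest there. None of the 8 tested was called at any time in either fit.

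Acta2, smooth muscle alpha-actin, was read by rc_AA900769_s_at as 122 and 282 at 0 h, 78.1 and 521 at 2 h, 219 and 421 at 4 h, 456 and 354 at 8 h, and 1363 and 323 at 24 h. Its probe set X06801cds_f_at read 133 and 134 at 0 h, 75.1 and 141 at 2 h, 103 and 115 at 4 h, 182 and 140.3 at 8 h, and 351 and 67.3 at 24 h. On both probe sets the 24 h arrays lay 4.22-fold and 5.21-fold apart, and on the second the lower of them was the lowest of the 10 arrays. Tagln, transgelin, an actin-binding protein of smooth muscle, was read by M83107_g_at as 50.8 and 37.1 at 0 h, 45.6 and 43.4 at 2 h, 37.6 and 54.7 at 4 h, 106 and 38 at 8 h, and 405 and 48 at 24 h. M83107_at of the same gene lay at 8.50 to 18 on 8 arrays, at 68.1 on 8 h replicate 1 and at 207 on 24 h replicate 1. Both Tagln probe sets were highest on the replicate 1 arrays of 24 and 8 h. A dim further Acta2 probe set, X06801cds_i_at, ran from 7.61 to 282 and had the same 2 arrays highest, while its 24 h replicate 2 array, at 11, was under the floor.

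Myl9, the regulatory light chain of smooth muscle myosin, was read by S77900_at as 556 and 722 at 0 h, 703 and 846 at 2 h, 833 and 460.3 at 4 h, 452 and 519 at 8 h, and 1486 and 805 at 24 h. Actg2, the gamma actin of smooth muscle, read 32.7 and 32.7 at 0 h, 35.1 and 40.4 at 2 h, 8.01 and 37.1 at 4 h, 50.1 and 13.9 at 8 h, and 71.4 and 32.3 at 24 h. For Myl9 both 24 h arrays lay above both 8 h arrays, with a difference of 1.18 ± 0.42 log2 units that was not called by limma (adjusted p = 0.576). Of the 4 untested probe sets of this type, those of Cnn1 and Myh11 (X16262_s_at) were highest on the same array, at 68 and 66.2, and the other 2 of Myh11 were not.

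At 24 h the 3 probe sets of Acta2 differed from 0 h by 1.84 ± 0.93 (rc_AA900769_s_at), 0.20 ± 0.66 (X06801cds_f_at) and 0.26 ± 1.34 (X06801cds_i_at) log2 units. The difference was 1.88 ± 1.16 (M83107_at) and 1.68 ± 0.87 (M83107_g_at) for the 2 Tagln probe sets and 0.79 ± 0.42 for Myl9 (S77900_at), and each of these had an adjusted p of 0.996 in limma. M83107_at, which passed the filter only through 24 h replicate 1, was under the floor on 4 arrays. Its 24 h difference was 3.59 log2 units within replicate 1 and 0.17 within replicate 2. Leaving out 24 h replicate 1 took the Tagln value of M83107_g_at from 1.68 to 0.14, and leaving out 24 h replicate 2 took it to 3.22.

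Peritubular myoid cells, the contractile cells around the tubule, can be carried into Sertoli cell cultures and express the smooth muscle genes. Of 16 listed myoid markers outside the members, 13 were on the array. Their summed intensity ran from 847 to 1844 on replicate 1 arrays, against 1462 to 2114 on replicate 2 arrays, with the highest sums at 24 h in both. Des, desmin, was too dim to test, with 3 arrays under the floor, and was at 62.7 on 24 h replicate 1 and at 10.8 to 45.9 on the other 9. Col1a2, a chain of type I collagen, was highest on 24 h replicate 1, at 348, with 297 on 24 h replicate 2. Z78279_at and Z78279_g_at of Col1a1 were also highest on 24 h replicate 1. Other probe sets were highest on 24 h replicate 2. They included M27207mRNA_s_at of Col1a1 (314 and 532 for replicates 1 and 2 at 24 h) and X70369_s_at of Col3a1 (128 and 196). Z12298cds_s_at of Dcn (72.9 and 257) and X05834_at of Fn1 (100.1 and 142.5) were as well. Of the 16 tested probe sets of the list, 3 were highest on 24 h replicate 1, where 14.9% of all tested probe sets were. In replicate 2, 8 of the 16 were called higher and 1 lower, against 6.53% and 8.65% of all tested. Of the 14 tested Sertoli cell probe sets, 0 were called higher in replicate 2 and 6 lower. No listed myoid gene was under the floor on all arrays. The part of myoid cells in the smooth muscle values was not tested.

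**Figure D5:**
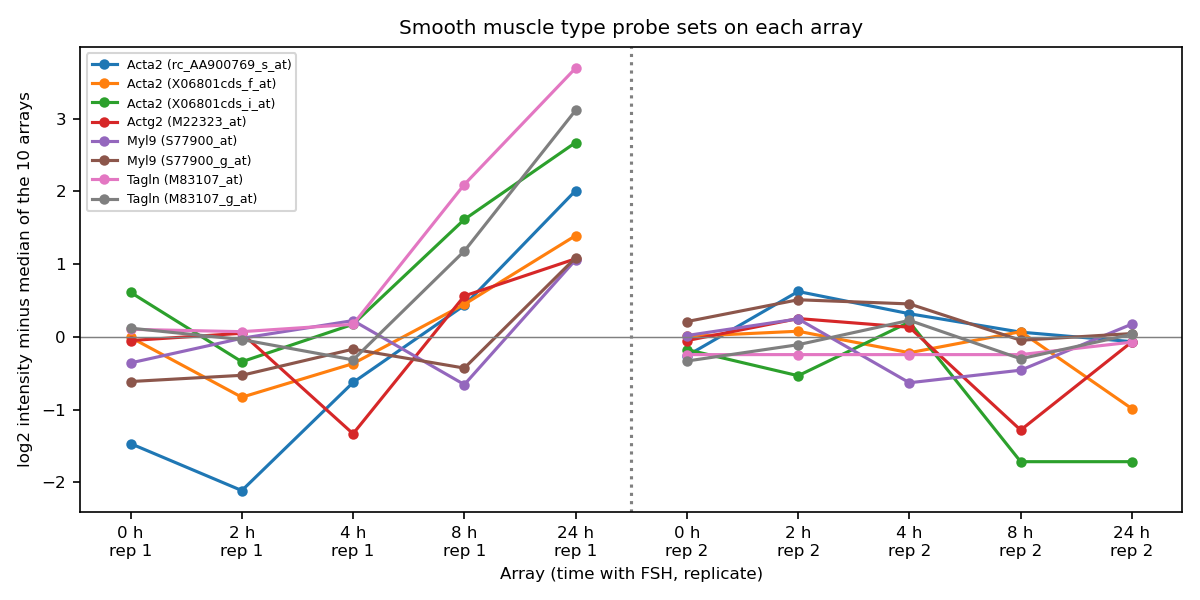
Log2 of the scaled and floored intensity of the 8 tested smooth muscle type probe sets on each of the 10 arrays, less the median of that probe set over the 10. Each line has its highest point on 24 h replicate 1, through which alone M83107_at and M22323_at passed the filter, while on 24 h replicate 2 the lines lie near or below 0.

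Genes that branch, crosslink and anchor filaments had 10 tested probe sets of 12 and gave no call over time. Their median log2 change was 0.24, -0.04, 0.22 and 0.38 at 2, 4, 8 and 24 h. At 24 h 9 of 10 were above 0, where 2278 of all 4439 tested probe sets were. The 24 h median was 0.40 within replicate 1 and 0.14 within replicate 2. Within replicate 2 both Arpc1b probe sets, Arpc4 and Actn4 were below 0. Tln1, talin, which ties integrins to actin, read 132 and 70.4 at 0 h, 126 and 109 at 2 h, 153 and 117 at 4 h, 126 and 161 at 8 h, and 241 and 134 at 24 h. Its 24 h arrays lay above its 0 h arrays, with a difference of 0.90 ± 0.42 log2 units that was not called by limma (adjusted p = 0.996). Cttn, cortactin, which stabilises branches, read 262 and 223 at 0 h and 459 and 291 at 24 h, and Capg, a filament capping protein, 71 and 36.7 at 0 h and 88.2 and 76.4 at 24 h. In both the 24 h arrays lay above the 0 h arrays, by 0.60 and 0.69 log2 units, and neither was called.

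Arpc1b, a subunit of the Arp2/3 complex, had 2 tested probe sets, Arpc4 and Arpc5l 1 each. AF083269_at of Arpc1b read 428 and 485 at 0 h, 855 and 432 at 2 h, 760.5 and 323 at 4 h, 869.9 and 403 at 8 h, and 877 and 454 at 24 h. The 4 replicate 1 arrays with FSH were at 760.5 to 877, and the 6 others at 323 to 485. Arpc4 ran from 275 to 460.1 and Arpc5l from 108 to 224. Msn, moesin, which links actin to the membrane, ran from 11.6 to 53.3, and its lowest array was control replicate 2.

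Non-muscle myosin was represented by light chains, in 5 tested probe sets of Myl6, Myl12a and Myl12b. Myl12b, a regulatory light chain, was read by D14688_s_at as 1475 and 433 at 0 h, 615 and 369.7 at 2 h, 771 and 333 at 4 h, 974 and 387 at 8 h, and 892 and 409.6 at 24 h. It was higher in replicate 1 at every time. The other Myl12b probe set, X52840_r_at, read 289 and 105 at 0 h, 126 and 198 at 2 h, 125 and 99.8 at 4 h, 130.4 and 199 at 8 h, and 193 and 179 at 24 h, so replicate 2 was the higher at 2 and 8 h. The 4 h difference of D14688_s_at was -0.66 log2 units and turned to 0.23 without control replicate 1. Myl12a, the sister gene, was read by X54617mRNA_s_at as 2528 and 2020 at 0 h, 2001 and 2622 at 2 h, 1685 and 1574 at 4 h, 1460 and 1768 at 8 h, and 2025 and 1998 at 24 h. Its 4 and 8 h arrays were the 4 lowest, with differences of -0.47 and -0.49 log2 units, not called. The other Myl12a probe set, X05566_i_at, read 1113 and 692 at 0 h, 595 and 1069 at 2 h, 487 and 1089 at 4 h, 627 and 727 at 8 h, and 807 and 799 at 24 h, and its 4 h arrays were its lowest and its 2nd highest. Myl6, the essential light chain, was read by rc_AA894200_at as 83.8 and 121 at 0 h, 73.5 and 84.7 at 2 h, 89.1 and 114 at 4 h, 96.4 and 93.8 at 8 h, and 91.8 and 92.5 at 24 h, with the groups overlapping.

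Striated muscle genes were mostly dim, as 19 of 28 probe sets were not tested, and the 9 tested ones gave no call over time. The grouping by symbol used here places Myl6b, an essential light chain, among them. Its probe set rc_AA875523_r_at read 31.2 and 104 at 0 h, 147 and 86.8 at 2 h, 131 and 68.9 at 4 h, 244 and 103 at 8 h, and 350.1 and 161 at 24 h. Both 24 h arrays lay above both controls, and the difference was 2.06 ± 0.69 log2 units, the largest of the members at that time, without a call in limma (adjusted p = 0.996, and 0.308 with the block). It was 3.49 within replicate 1 and 0.62 within replicate 2, and with 1 array left out it ran from 1.18 (without control replicate 1) to 2.93 (without control replicate 2). The suffix _r marks a probe set made under relaxed rules, and 2 companion probe sets of the same clone are assigned to Myl6 as well, so the gene it reads is uncertain. Myl2, the ventricular regulatory light chain, read 61.2 and 67.6 at 0 h and 44.6 and 12.2 at 24 h, a difference of -1.39 ± 0.60 that was not called (adjusted p = 0.996 in limma). The lower 24 h array was under the floor, and the difference was -2.26 without 24 h replicate 1 and -0.53 without 24 h replicate 2. Myh3, embryonic myosin heavy chain, ran from 107 to 336 and was lowest on 8 h replicate 1.

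Between the replicate numbers, 7 of the 49 members (14.3%) differed in limma with time as a factor, and 15.2% of all tested probe sets did. Of the 7, 3 were higher in replicate 2 (6.53% of all tested) and 4 lower (8.65%). Those higher were the 2 Tpm3 probe sets given above and Myh7, slow myosin heavy chain, by 1.03 log2 units (X15939_f_at, adjusted p = 0.0326 in limma). Myh7 read 39.1 and 63.5 at 0 h, 13.4 and 39.7 at 2 h, 33.4 and 62.4 at 4 h, 20.1 and 49.9 at 8 h, and 22.3 and 35.9 at 24 h. The suffix _f marks a probe set for a gene family, and its 2 h replicate 1 array lay just under the floor. A further Myh7 probe set, X15939_i_at, read 1.76 to 17.7 with 9 arrays under the floor and was not tested. Those lower were S82383_s_at of Tpm3, Myl12b (D14688_s_at, -1.23, adjusted p = 0.00309 in limma), Arpc1b (AF083269_at, -0.82, 0.0364) and Actn4 (-0.88, 0.0186). Actn4, non-muscle alpha-actinin, read 152 and 75.2 at 0 h, 82.7 and 71 at 2 h, 119 and 67.1 at 4 h, 149.8 and 63.9 at 8 h, and 114 and 52 at 24 h, with replicate 1 higher at each time. The other Myl12b probe set, X52840_r_at, had -0.13 and was not called (adjusted p = 0.820 in limma). The ratio of the 3′ to the 5′ control probe set of beta-actin, a measure of RNA integrity and labelling, ran from 0.928 to 1.17 on replicate 1 arrays, below the 1.48 to 1.76 of replicate 2 arrays. Its part in the differences between replicate numbers was not tested.

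Of the other genes of the actin and serum response factor pathway, Fos and Ezr were called without the block. Of 80 listed genes outside the members, 46 were on the array and 33 were tested in 50 probe sets. In replicate 2, 1 of the 50 was called higher and 10 lower, against 6.53% and 8.65% of all tested. In limma 1 probe set rose at 2 h, 1 at 4 h and 1 at 8 h, with 0 at 24 h and 0 lower at any time, and with the block 4, 3, 2 and 0 rose. Over all tested probe sets 0.676%, 0.856%, 0.766% and 0% were called without the block at 2, 4, 8 and 24 h, and 1.22%, 2.95%, 2.68% and 0.0901% with it. The rise at 2 h was Fos, the immediate early factor, by 2.56 log2 units on X06769cds_at (adjusted p = 0.0228 in limma). Its probe sets X03347cds_g_at and X06769cds_g_at had means of 456 and 597 at 2 h, against 66.8 and 179 at 0 h. Neither was called without the block. The rises at 4 and 8 h were Ezr, ezrin, which links actin to the membrane as moesin does. Ezr read 128 and 121 at 0 h, 457 and 291 at 2 h, 906 and 722 at 4 h, 854 and 652 at 8 h, and 172 and 176 at 24 h. It rose by 2.70 and 2.58 log2 units (adjusted p = 0.00812 and 0.0102 in limma) and, in the blocked fit, fell by 2.10 between 8 and 24 h (adjusted p = 0.00911 in limma). Of the 50 probe sets of the list, 11 were highest on 24 h replicate 1, where 14.9% of all tested probe sets were.

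Pak1, a kinase downstream of Rac and Cdc42, read 128 and 62.7 at 0 h, 204 and 96 at 2 h, 199 and 113 at 4 h, 488 and 242 at 8 h, and 411 and 205 at 24 h. Its 8 h difference of 1.94 log2 units was called by limma with the block (adjusted p = 0.00288) and not without it (0.277). The next largest 8 h values in the list were -1.20 for Cap1, which binds actin monomers, 1.10 for Plec, plectin, -1.03 for Csrp2, a LIM protein of smooth muscle, and 0.96 for Limk1, the kinase of cofilin, none of them called. For Plec (U96275_at) and Limk1 (D31873_g_at) a brighter probe set of the gene had a value of the other sign, -0.15 (X59601_at) and -0.46 (D31873_at). D31873_g_at was under the floor on 2 arrays, at 7.04 on 2 h replicate 1 and 12.6 on 4 h replicate 1. Cap1 read 441 and 245 at 0 h, 163 and 233 at 4 h, and 141 and 144 at 8 h, so both 8 h arrays were below both controls.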

How the data were processed

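Each of the 10 arrays (Affymetrix rat arrays of 8799 probe sets) was deposited as 1 linear intensity per probe set, and the processing behind these intensities is not given in the sources used here; the deposited means without the lowest and highest 2% lay at 125.2 to 125.27, as after scaling to a common target. Arrays were scaled to a common 75th percentile of 107.7, floored at 13.46 (that value divided by 8) and put on the log2 scale. The 59 control probe sets and those with a mean under 31.97 were left out. Intensities in the text are scaled, before the floor.

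Gene symbols are those of the array platform's annotation (1 symbol for 7006 probe sets, several for 308, none for 1426). Of the 76 members, 74 matched a RefSeq gene (GRCr8) by identifier, each with the same symbol. Tests used limma 3.58.1 under R 4.3.3 (1 mean per group, eBayes with an intensity trend), adjusted by Benjamini-Hochberg over 4439 probe sets, called at an adjusted p under 0.05, and checked on simulated data. Same-numbered arrays deviated together (correlations of 0.11 to 0.698 over 10 pairs of times, 0.205 to 0.608 over the 6 without 2 h), and the replicate number was therefore also fitted as a block. Members, roles and marker lists were chosen with earlier results of these data known. Values in every array are given for members called over time, for the brightest tested probe set of the actins, tropomyosins and Myl6, Myl9, Tagln, Cnn3, Tmsb4x and Pfn1, and for the largest change of each role at 4 and at 8 h. Further members were named after their values were seen. The alternatives were another scaling, floor, filter, offset or variance model, the block, and leaving out each array. A further class of members, with 2 probe sets, enters the counts and is not reported here.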

Additional observations from a re-analysis of the deposited data

How the results depend on the processing

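The count of called members stayed 0 under all 20 alternatives at 2 h, at 24 h and for 24 h against 8 h. At 4 h, at 8 h, for the mean of the FSH times and for the F test it stayed 0 under 19, and with the replicate block it was 1 (Tpm4) in each of the 4. The block changed no other call over time among the members. For replicate 2 against replicate 1 the 7 called members became 3 after centring on the median and 1 with no filter on low values, and ranged from 1 to 14 when 1 array was left out (12 without control replicate 1, 14 without control replicate 2, 1 or 2 otherwise). Centring on the median moved the median change of all probe sets from 0.02 to 0.19 at 24 h and from -0.02 to 0.10 at 2 h. Of 30 differences of single probe sets followed, 24 kept their direction under every alternative. The other 6 turned without control replicate 1: Myl12b at 2 h (0.14; -1.63 to 0.14 with 1 array left out), at 4 h (0.23; -1.54 to 0.23) and for the mean (0.34; -1.43 to 0.34), Tmsb4x at 4 h (0.36; -1.20 to 0.36) and at 8 h (0.36; -1.20 to 0.36), and Myl6b at 4 h (-0.13; -0.13 to 1.61), and the cause was not tested. With the block together with each other choice, added after the data were seen, the Tpm4 call held in 17 of 19 alternatives at 8 h, 12 of 19 at 4 h and 9 of 19 for the mean. The filter on the 9 other arrays, also added then, left 6 smooth muscle type probe sets highest on 24 h replicate 1 in place of 8. With 2 arrays a group, the number of arrays limits the precision of every value. Of the 49 tested probe sets 8 had an array at the floor, where values have no order, and 1 each of Acta2 (2 arrays), Tagln (4) and Tpm3 (4) had more than 1.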

Other observations

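Actin and myosin probe sets that carry several gene symbols were left out of the members, 14 in all, of which 10 were tested and 0 were called over time by limma in either fit. Myl6, the essential light chain of non-muscle myosin, was read by 4 shared probe sets, all highest on 24 h replicate 1. The probe set rc_AA875523_s_at, shared with Myl6l, read 6255 and 3098 at 0 h, 3995 and 4295 at 2 h, 3764 and 4438 at 4 h, 6181 and 4098 at 8 h, and 7594 and 5241 at 24 h, for replicates 1 and 2 in turn. The 24 h differences from 0 h of the 4 were 0.45, 0.52, 0.67 and 0.72 log2 units, each with an adjusted p of 0.996 in limma.

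Myh9, the heavy chain of non-muscle myosin, had 2 such probe sets because its symbol is listed more than once. U15764_s_at read 133 and 114 at 0 h, 153 and 32.9 at 2 h, 96.5 and 17.1 at 4 h, 141 and 13.9 at 8 h, and 104 and 14.7 at 24 h. Its 0 h arrays were close, and its 4 FSH arrays of replicate 2 lay below all others, with a difference between the numbers of -2.22 ± 0.39 log2 units (adjusted p = 0.00633 in limma with time as a factor). The other Myh9 probe set, U31463_at, had -0.86 ± 0.27 and was not called (adjusted p = 0.0647 in limma).

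The 2 tested probe sets shared by Acta2 and cardiac alpha-actin Actc1 were not highest on 24 h replicate 1, where they read 169 and 69.8. Their 24 h differences from 0 h were -0.27 and -0.44 log2 units. The probe sets shared by Actb and Actg1 read 8924 and 12060 on 24 h replicate 1 and had 24 h differences of 0.04 and 0.02, and both were highest on control replicate 1, at 10530 and 14670. The array's own beta-actin control at the 3′ end was deposited as 5142 to 6400 in replicate 1 and 8024 to 9890 in replicate 2.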
